A study of Homo sapiens with 12 samples.

Results

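The genes of the G1/S transition and of DNA replication were followed in LNCaP cells, an established human prostate cancer line, with and without Bag-1L. They were chosen by name, as the count rows whose Ensembl identifiers match a list of 57 symbols, and 56 of these were found among 63677 gene rows. UHRF1 was not analysed here. Poly(A) RNA had been sequenced from 12 samples in 6 groups of 2 replicates. In the Bag-1L KO line a TALEN pair, an engineered nuclease, had been directed at the CTG start codon of Bag-1L, the longest protein form of the gene BAG1. The line was grown from a single clone, and the start codons of the shorter Bag-1 forms were left in place. The control line had received vector only. All groups thus shared the LNCaP background, and with 1 KO clone the effect of the deletion and differences between clones cannot be told apart. Full medium (FM) was RPMI 1640 with 10% fetal bovine serum. In the other groups the serum was charcoal/dextran-treated to deplete hormone for 72 h, and the cells then received ethanol vehicle (EtOH) or 10 nM dihydrotestosterone (DHT), an androgen, for 16 h. The study's methods also name medium free of phenol red for starvation, and the FM samples had 0 h of starvation and of treatment. FM and EtOH samples thus differ in serum, medium and vehicle treatment, which cannot be told apart here.

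A cell commits to DNA synthesis when cyclin D and cyclin E kinases phosphorylate the RB proteins, which then release the E2F transcription factors. E2F factors drive transcription of the proteins that load the MCM helicase on replication origins, fire it, copy the DNA, supply deoxynucleotides and repackage the new strands. The transcripts of most of these proteins therefore rise and fall with the share of cycling cells, and in LNCaP cells androgen is a known mitogen. In bulk RNA fewer cells of a stage and less RNA per cell cannot be told apart.

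Gene counts summed to between 20826843 and 30354666 per sample, and all 56 genes passed the filter on low counts and were tested in every comparison. Replicates differed most in control EtOH, where the absolute log2 difference between them had a median of 0.221 over the 56 genes and of 0.238 over the 11374 genes that averaged 100 or more normalized counts (counts divided by a size factor per sample). In this group the second replicate was the higher one for most of these genes, by a median of 0.144 (log2), against 0.008 over all genes. The luminal markers KLK2, KLK3, FOLH1, HOXB13, KRT8 and KRT18 were present in every sample, and KRT5, TP63, PTPRC, CD3E, CD68, COL1A2, CHGA and INSM1 had at most 5 raw counts in any sample. KRT14 had between 0 and 28 raw counts, COL3A1 between 3 and 36, and SYP between 21 and 78. The fibroblast collagen COL1A1 had normalized counts of 773 and 724 (EtOH) in control, and 670.3 and 752 (EtOH) in KO, and its log2 fold change in FM against EtOH was -0.81 in control and -0.86 in KO. Its part in the results was not tested. BAG1 had normalized counts of 1702 and 2703 (EtOH), 2199 and 2631 (DHT), 2117 and 1968 (FM) in control, and 1191 and 1103 (EtOH), 1076 and 1114 (DHT), 1452 and 1576 (FM) in KO. The count covers all Bag-1 forms, so a lost start codon need not alter it. In KO it was lower in EtOH, by 1.92-fold, and in DHT, by 2.21-fold. The log2 fold change of BAG1 in EtOH was -0.94, and at -0.57 it fell short of 1.5-fold without control EtOH replicate 2.

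The promoters were examined first, since E2F factors bind these genes at known letters. RefSeq (GRCh38.p14) gave a promoter for 48 of the 56 genes, and the 250 bases before each start were searched on both strands for the E2F letters TTTCCCGC, TTTCGCGC, TTTGCCGC and TTTGGCGC. The 48 genes had 65 such windows, and a gene was counted if any of its windows held a match. A match was present in 18 of 48 genes (37.5%), against 928 of 27305 genes with a promoter (3.4%). The CCAAT box (CCAAT) was present in 28 genes (58.3%, against 37.0% of all genes) and the GC box (GGGCGG) in 36 genes (75.0%, against 46.2%). The cell cycle homology letters (TTTGAA), known from promoters of mitotic genes, were present in 2 genes (4.17%, against 16.1%). Other genes of the same pathway, described later, had a promoter in 36 cases. Of these 36 the E2F letters were in 8 (22.2%), the CCAAT box in 52.8%, the GC box in 91.7% and TTTGAA in 13.9%. Some promoters hold several of these motifs, and overlapping matches were counted in each. A match is a description of the letters and not of binding. The stretches below show such matches in genes whose counts are described later: E2F1, E2F2 and GINS2, which were lower in KO in EtOH, and CDC25A, MCM3 and CDC7. Each stretch is read 5′ to 3′ along its gene, and capitals mark the E2F letters or their reverse complement.
E2F1 (chr20:33686386-33686450, minus strand): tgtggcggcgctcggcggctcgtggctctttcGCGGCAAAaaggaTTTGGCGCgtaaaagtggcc
E2F2 (chr1:23531236-23531307, minus strand): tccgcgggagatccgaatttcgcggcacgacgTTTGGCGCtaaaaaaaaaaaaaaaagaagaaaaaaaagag
GINS2 (chr16:85688955-85689017, minus strand): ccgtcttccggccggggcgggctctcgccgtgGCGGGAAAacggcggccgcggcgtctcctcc
CDC25A (chr3:48188422-48188493, minus strand): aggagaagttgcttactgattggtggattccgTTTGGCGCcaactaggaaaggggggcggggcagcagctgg
MCM3 (chr6:52284877-52284948, minus strand): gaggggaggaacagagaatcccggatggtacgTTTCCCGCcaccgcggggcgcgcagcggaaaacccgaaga
CDC7 (chr1:91501012-91501111, plus strand): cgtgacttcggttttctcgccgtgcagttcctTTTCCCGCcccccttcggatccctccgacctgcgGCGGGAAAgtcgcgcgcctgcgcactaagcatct
In E2F1 and CDC7 the letters occurred at 2 places within the stretch. Of the 14 genes that were lower in KO in EtOH, 12 had a promoter, and 3 of these 12 held the letters, namely E2F1, E2F2 and GINS2. In the 4 genes CDK6, CDC6, CDC45 and TK1, whose KO values lay farthest below control in EtOH, these letters were not in the window.

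The 56 genes together took 0.577% and 0.573% of all gene counts in control FM, and 0.542% and 0.535% in KO FM. After starvation their share was 0.315% and 0.319% in control EtOH, and 0.25% and 0.256% in KO EtOH. In DHT it was 0.285% and 0.278% in control, and 0.26% and 0.255% in KO. The FM samples thus lay above all starved samples. In EtOH, DHT and FM the KO share lay below the control share by more than the distance between replicates, and by most in EtOH.

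**Figure D1:**
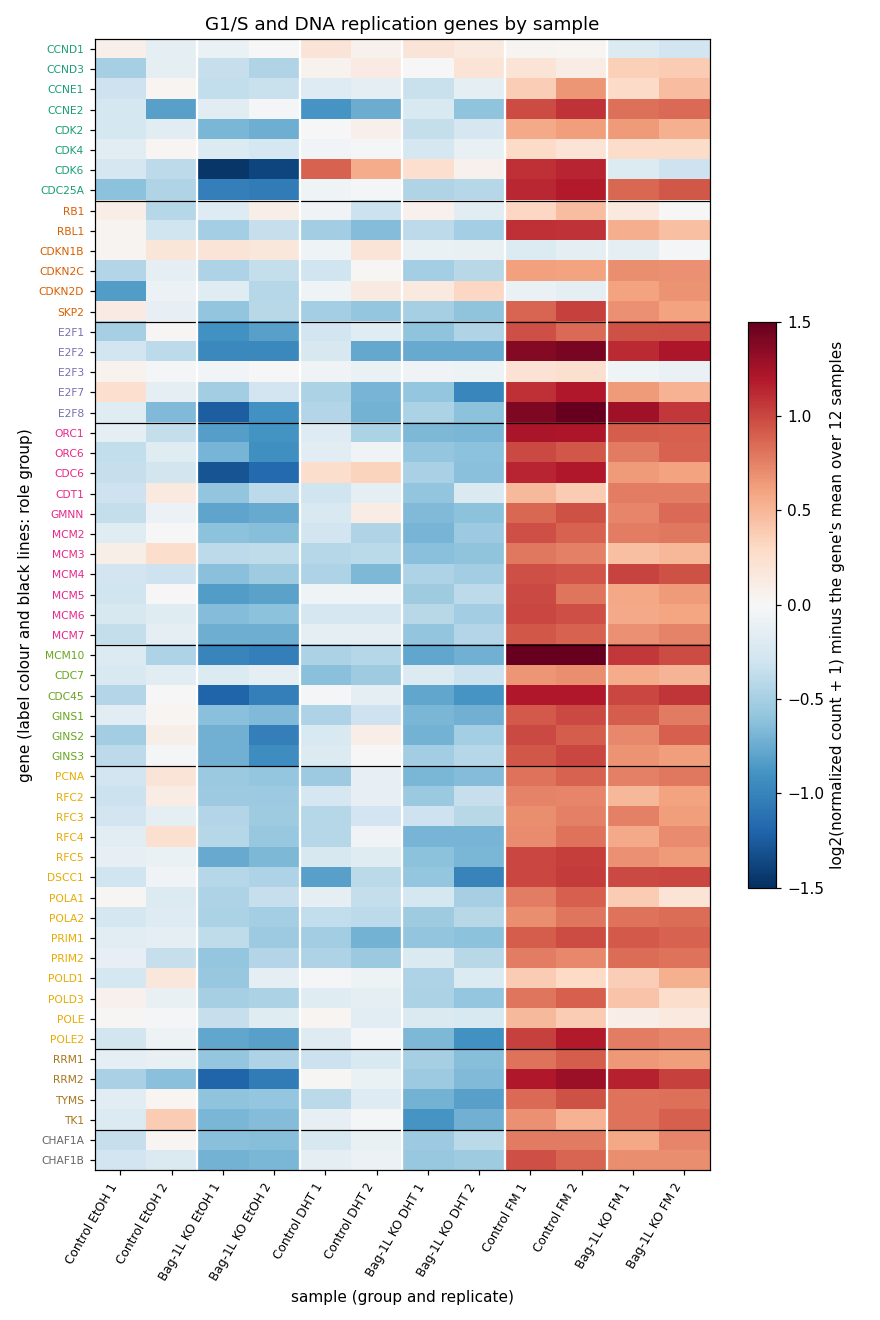
Log2 of the normalized count plus 1, minus each gene's mean over the 12 samples, for the 56 genes (vertical axis, by role, lines between roles) in the 12 samples (horizontal axis), with the colour scale in log2 units. The 4 FM samples are red for most genes, and the 2 KO EtOH samples hold many of the deepest blues.

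The first question was how these genes differ between full medium and starvation. A gene passed the threshold with a fold change of 1.5 or more and an adjusted p of 0.05 or less. In control cells 45 of 56 genes were higher in FM than in EtOH, where 9.81% of all genes tested were, and 0 were lower, where 11.5% of all genes were. In KO cells 50 of 56 were higher, against 9.61% of all genes, and 0 were lower, against 9.68%. The median log2 fold change of the 56 genes was 1.01 in control and 1.31 in KO, and that of all genes tested was -0.009 and -0.007. For the counts of 0 lower genes, edgeR also gave 0 in both lines, and at an unadjusted p of at most 0.05 in DESeq2 1 gene was lower in each. A rise of at least 2-fold was found in 28 genes in control and in 39 in KO. The share of all genes with such a rise was not computed. All 45 genes that rose in control also rose in KO, and the 5 others that rose in KO were CCND3, CDKN2D, CDT1, POLD1 and TK1. The 6 genes CCND1, CDK4, CDKN1B, E2F3, POLE and RB1 passed in no comparison of the study.

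The response to FM was more positive in KO than in control for 45 of 56 genes, and for 6658 of all 12971 genes tested. The same 45 genes had a lower log2 fold change of KO against control in EtOH than in FM, so this is no separate result. The difference between the responses, tested as an interaction, passed for TK1 and CDC45, 2 of 56 genes with a larger response in KO, against 0.748% of all genes. It passed for 0 in the opposite direction, against 0.64%, also by edgeR. At an unadjusted p of at most 0.05 in DESeq2, 21 genes had a larger and 1 a smaller response in KO. Such a p was found, in either direction, in 2035 of all 12971 genes tested. The median difference over the 56 genes was 0.29 (log2), against 0.012 over all genes. This difference shares the EtOH samples of both lines with the comparison of KO and control in EtOH, and its count rests on the control EtOH libraries: it was 11 without control EtOH replicate 1 and 1 without control EtOH replicate 2, and 0 without control FM replicate 2. Across the 56 genes the responses of control and KO, which share no sample, had a Pearson r of 0.839 and a Spearman rho of 0.778. Genes are not independent replicates, and all 56 share the same libraries.

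**Figure D2:**
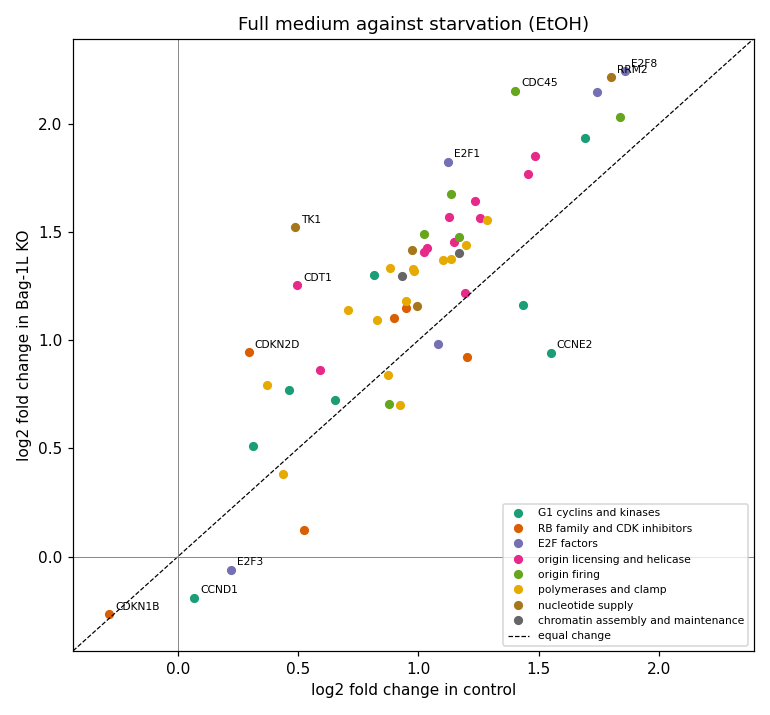
Log2 fold change of each gene in FM over EtOH in control (horizontal) and in Bag-1L KO (vertical), coloured by role, with the dashed line marking equal change. In 45 of 56 genes the KO value is above the control value, TK1 and CDC45 lie well above the line and CCNE2 below it.

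The second question was whether androgen acts on these genes. DHT moved few of them past the threshold. In control cells 2 of 56 genes rose, CDK6 and CDC6, where 6.04% of all genes tested did, and 2 fell, E2F7 and MCM3, where 5.37% did. In KO cells 3 rose, CDK6, CDC6 and CDC25A, where 4.43% of all genes did, and 0 fell, where 3.24% did. These shares are near those of all genes. With the adjusted p alone, at any fold change, 5 of the 56 were higher with DHT in control, against 11.2% of all genes tested, and 8 were lower, against 8.75%. In KO 7 were higher, against 8.02%, and 0 were lower, against 5.57%. Over the 56 genes the log2 response to DHT had a median of -0.089 in control and 0.087 in KO, against -0.017 and -0.014 over all genes. For the count of 0 falls in KO, edgeR also gave 0, and 2 genes were lower at an unadjusted p of at most 0.05 in DESeq2. Values of DHT and EtOH samples did not overlap, with DHT higher, in 9 genes in control (24.6% of all genes) and in 26 in KO (28.4%). With DHT lower they did not overlap in 18 genes in control (25% of all genes) and in 12 in KO (30.6%).

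The DHT response was more positive in KO than in control for 51 of 56 genes, and for 6614 of all 13478 genes tested. The median difference was 0.155 (log2), against -0.004 over all genes. It shares the EtOH samples of both lines with the comparison of KO and control in EtOH. The same 51 genes had a lower log2 fold change of KO against control in EtOH than in DHT, so this is no separate result. Genes in the same libraries are not independent replicates here either. No single gene carried a difference past the threshold: by DESeq2 0 were higher in KO, against 0.223% of all genes, and 0 were lower, against 0.185%. By edgeR the count was also 0. An unadjusted p of at most 0.05 in DESeq2 was found, in either direction, in 579 of all 13478 genes tested. It was found in 8 of the 56, all with a more positive response in KO. The smallest of these belonged to SKP2, with a difference of 0.50 ± 0.18 (SE; adjusted p = 0.47), and to MCM3, with 0.37 ± 0.14 (adjusted p = 0.51), named here after their values were seen. Without control EtOH replicate 2 the count was 1. Across the 56 genes the DHT responses of control and KO had an r of 0.841 and a rho of 0.751.

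**Figure D3:**
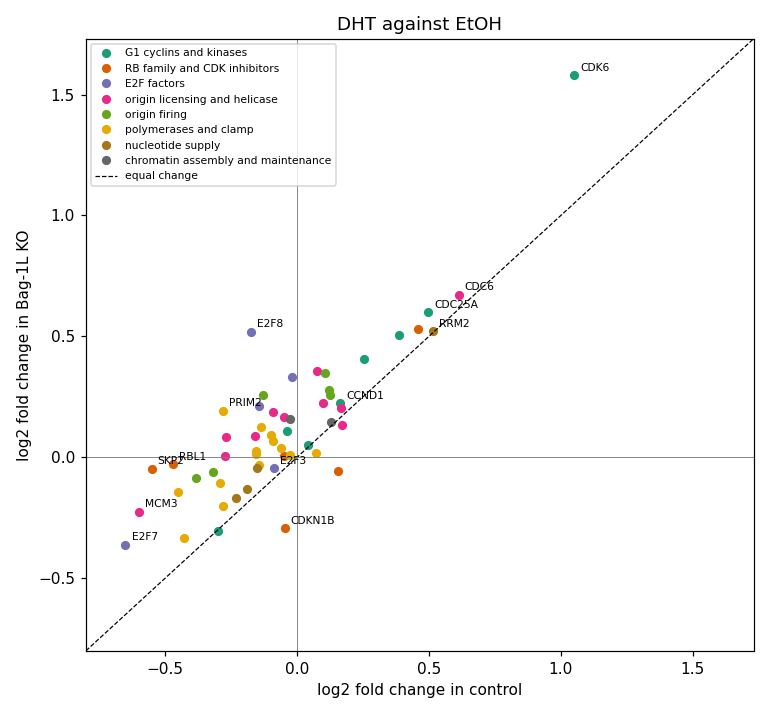
Log2 fold change of each gene in DHT over EtOH in control (horizontal) and in Bag-1L KO (vertical), coloured by role, with the dashed line marking equal change. CDK6 stands apart at 1.05 and 1.58, most genes lie within 0.5 of 0, and 51 of 56 lie above the line.

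The third question was how loss of Bag-1L bears on these genes in each condition. In EtOH 14 of 56 genes were lower in KO than in control, against 2.31% of all genes tested, and 0 were higher, against 2.8%. In DHT 5 were lower, against 3.32%, and 0 were higher, against 4.66%. In FM 1 was lower, CDK6, against 2.6%, and 1 was higher, CDKN2D, against 5.41%. Higher in KO by edgeR were also 0 in EtOH and DHT, and at an unadjusted p of at most 0.05 in DESeq2 1 gene was higher in EtOH and 2 in DHT. The median log2 fold change was -0.48 in EtOH, -0.28 in DHT and -0.16 in FM, against -0.015, -0.018 and -0.014 over all genes. The differences in EtOH were thus mostly smaller than 1.5-fold but shared by many genes. With the adjusted p alone, 33 of 56 were lower in EtOH (5.1% of all genes) and 0 higher (4.71%). In DHT 19 were lower (8.73%) and 1 was higher (7.63%), and in FM 12 were lower (9.24%) and 1 was higher (9.27%).

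Values of KO and control samples did not overlap, with KO lower, in 46 of 56 genes in EtOH, where this held for 23.5% of all genes. In DHT it held for 36 genes (30.7% of all genes) and in FM for 39 (38.6%). With KO higher the values did not overlap in 1 gene in EtOH (23.4%), CCNE2, in 5 genes in DHT (26.8%) and in 8 genes in FM (34.7%). The KO value was below control in all 3 conditions for 36 genes and above it in all 3 for 1, CDKN2D. The share of all genes with such a shared sign was not computed. Across the 56 genes the KO effects in EtOH and DHT had an r of 0.8 and a rho of 0.767, and those in EtOH and FM an r of 0.422 and a rho of 0.312.

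The count in EtOH depends on the control EtOH libraries. It was 24 without control EtOH replicate 1, with 23 lower and 1 higher, and 10 without control EtOH replicate 2. Fitting only the 2 groups compared, it was 7. CDK6, CDC6 and CDC45 were lower under every alternative tried. In FM the count without KO FM replicate 1 was 5, and it was 1 without control FM replicate 2 or without KO FM replicate 2, since CDKN2D then no longer passed.

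**Figure D4:**
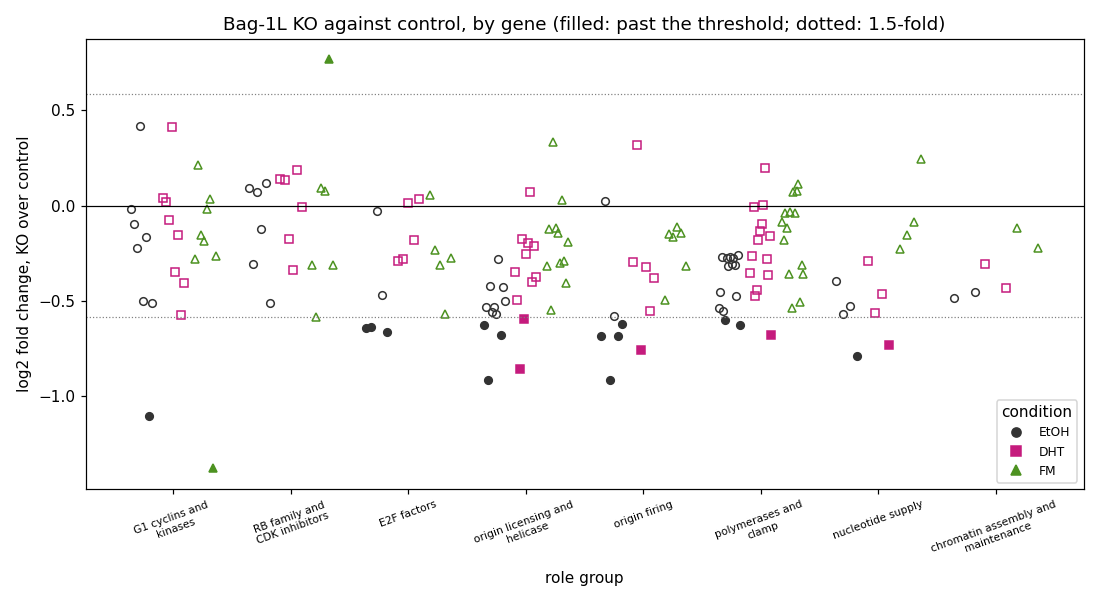
Log2 fold change of Bag-1L KO over control for each gene (vertical axis), by role group (horizontal axis) and condition (circles EtOH, squares DHT, triangles FM). Filled symbols passed the threshold, and the dotted lines mark 1.5-fold. Of the EtOH circles 14 are filled, all below 0, of the DHT squares 5, and of the FM triangles 1 below and 1 above 0.

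Among the G1 cyclins and kinases, 5 of 8 rose in FM in control, 6 rose in KO, and CDK6 was the only 1 of them lower in KO past the threshold. CDK6, a kinase that cyclin D activates to phosphorylate RB, lies at chromosome 7, 92234235 to 92465887, minus strand (GRCh37). Normalized counts of CDK6 were 307 and 279 (EtOH), 677 and 537 (DHT), 779.7 and 804 (FM) in control, and 132 and 140.2 (EtOH), 434 and 381 (DHT), 315 and 295 (FM) in KO. Its values were lowest in KO EtOH, and in each condition both KO samples lay below both control samples. KO was 2.15-fold lower in EtOH, with a log2 fold change of -1.10 ± 0.18 (adjusted p = 5.7e-08), where ± gives the SE here and in what follows. In FM it was 2.6-fold lower, -1.38 ± 0.16 (adjusted p = 1.1e-15), and in DHT the value was -0.57 ± 0.16 (adjusted p = 0.003), short of 1.5-fold. DHT raised it by 2.07-fold in control and 2.99-fold in KO, with log2 fold changes of 1.05 ± 0.16 (adjusted p = 1.5e-09) and 1.58 ± 0.17 (adjusted p = 1.0e-17). In control it was higher still in FM, whereas in KO both FM samples lay below both DHT samples. Of the 56 genes it had the lowest level per kb of canonical transcript in 4 of the 6 groups, and E2F2 in the other two.

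CDC25A, the phosphatase that removes inhibitory phosphates from cyclin-dependent kinases, had normalized counts of 679.5 and 759 (EtOH), 999 and 1029 (DHT), 2275 and 2365 (FM) in control, and 511 and 501 (EtOH), 758 and 775 (DHT), 1884 and 1982 (FM) in KO. The FM samples lay far above the starved ones, and the DHT samples above the EtOH samples in both lines without overlap. Its log2 fold change in FM was 1.69 ± 0.11 (adjusted p = 1.8e-51) in control and 1.93 ± 0.11 (adjusted p = 2.0e-63) in KO. In DHT it was 0.50 ± 0.11 (adjusted p = 1.3e-04) in control, under 1.5-fold, and 0.60 ± 0.12 (adjusted p = 5.9e-06) in KO, past the threshold, and the difference between the lines, 0.10 ± 0.16 (adjusted p = 1), did not pass.

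The cyclin genes differed among themselves. CCND1, which encodes cyclin D1, had normalized counts of 6145 and 5268 (EtOH), 6686 and 6089 (DHT), 6001 and 5972 (FM) in control, and 5441 and 5824 (EtOH), 6674 and 6479 (DHT), 5077 and 4794 (FM) in KO. It passed in none of the comparisons made. KO FM held the lowest values, below both control FM samples, with -0.28 ± 0.11 (adjusted p = 0.051). CCNE2, 1 of the genes for cyclin E, the partner of CDK2, had normalized counts of 199.8 and 136 (EtOH), 130.2 and 143 (DHT), 474 and 511 (FM) in control, and 214 and 236 (EtOH), 205 and 158 (DHT), 429 and 436 (FM) in KO. It rose in FM in control, 1.55 ± 0.20 (adjusted p = 9.8e-14), and in KO, 0.94 ± 0.19 (adjusted p = 1.1e-05), and in EtOH its KO samples lay above its control samples, 0.42 ± 0.20 (adjusted p = 0.21), without passing. Of its exon bases 37.1% overlap INTS8 and ENSG00000272509 on the opposite strand, and the strand setting of the counting is not given in the sources used here. The same holds for CDK4 (44.2%, TSPAN31) and TYMS (47.9%, ENOSF1 and TYMSOS). CDK2 rose in FM in control (0.81) and KO (1.30), as did CCNE1 (0.65 and 0.73). CCND3 rose in FM in KO (0.77) and had 0.46 in control.

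**Figure D5:**
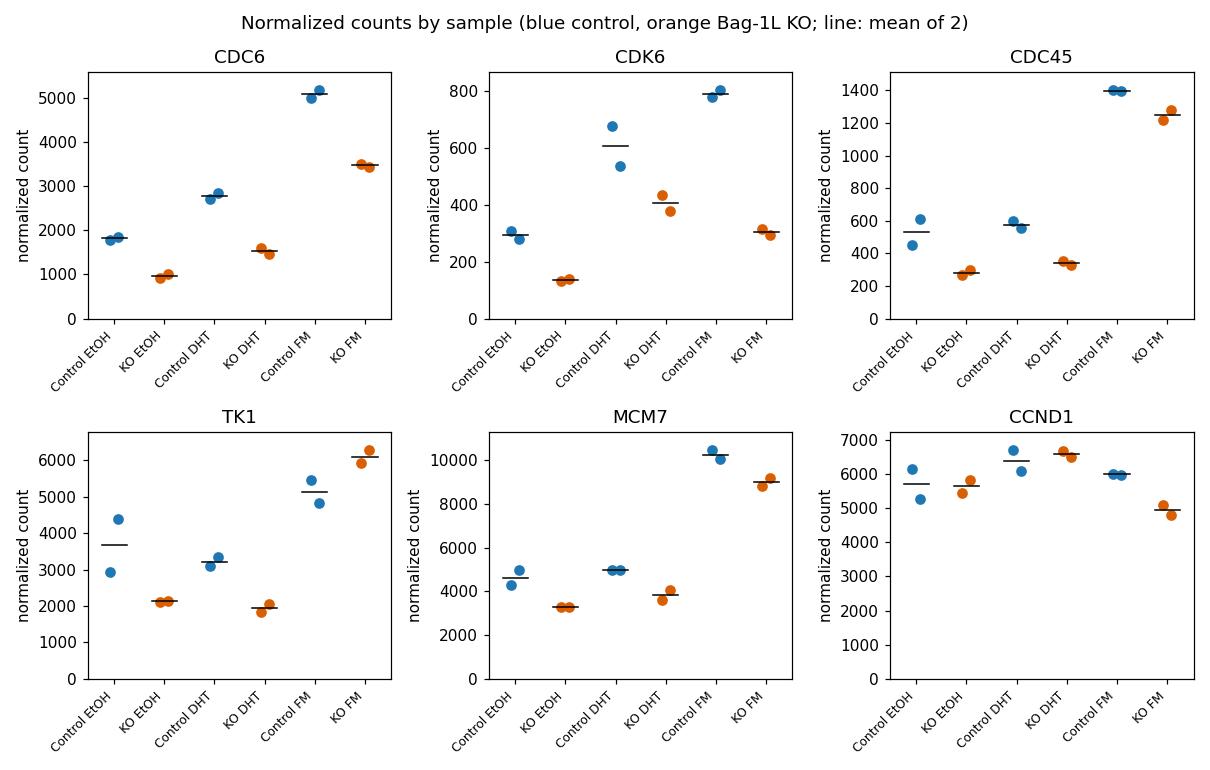
Normalized counts (vertical axes, from 0) of 6 genes in the 6 groups, with a point per sample, blue for control and orange for Bag-1L KO, and a line at the mean of the 2 samples. CDC6 and CDK6 are lower in KO in every condition, TK1 is lower in KO in EtOH and DHT but not in FM, and CCND1 stays within 4794 and 6686 in all samples.

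The RB proteins and the inhibitors of cyclin-dependent kinases hold G1/S back, and SKP2, counted with them, acts against 1 of the inhibitors. Of these 6 genes, 3 rose in FM in control and 4 in KO, and 0 passed as lower in KO in EtOH or DHT. KO against control was below 0 for 3 of them and above 0 for 3 in EtOH, and likewise in FM. SKP2 had -0.51 ± 0.13 (adjusted p = 0.0017) in EtOH, and RBL1 had -0.58 ± 0.14 (adjusted p = 7.45e-04) in FM, both under 1.5-fold. RB1 had log2 fold changes of 0.52 in FM in control and 0.12 in KO, and did not pass in either. RBL1, an RB relative that is itself an E2F target, rose in FM by 2.3-fold in control and 1.9-fold in KO. SKP2, the ubiquitin ligase subunit that marks the inhibitor p27 for breakdown, rose by 1.93-fold and 2.22-fold. Its response to DHT was -0.55 ± 0.13 (adjusted p = 2.45e-04) in control, under 1.5-fold, and -0.05 ± 0.13 (adjusted p = 0.91) in KO. CDKN1B, which encodes p27, had a log2 fold change in FM against EtOH of -0.28 in control and -0.27 in KO. It was the only 1 of the 56 genes with a value below 0 in this comparison in both lines. CDKN2D, an inhibitor of CDK4 and CDK6, had normalized counts of 155 and 262 (EtOH), 266 and 307 (DHT), 259.5 and 251 (FM) in control, and 246 and 206 (EtOH), 308 and 345 (DHT), 423 and 446 (FM) in KO. Both KO FM samples lay above all others, and the 2 control EtOH samples lay far apart. It was 1.7-fold higher in KO than in control in FM, 0.77 ± 0.21 (adjusted p = 0.0036). Without control FM replicate 2 the adjusted p was 0.104, and without KO FM replicate 2 it was 0.113.

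Of the 5 E2F genes, 4 rose in FM in both lines and E2F3 in neither. E2F1 and E2F2 encode activators of G1/S transcription. Normalized counts of E2F1 were 813 and 1167 (EtOH), 939.9 and 1013 (DHT), 2244 and 2066 (FM) in control, and 614 and 653 (EtOH), 757 and 841 (DHT), 2229 and 2258 (FM) in KO. It was 1.56-fold lower in KO in EtOH, -0.64 ± 0.16 (adjusted p = 0.0011), with no overlap between the groups, while the values in FM overlapped. The log2 fold change was -0.358 without control EtOH replicate 2 and -0.601 without KO EtOH replicate 1, and passed in neither case. The FM response was 1.12 ± 0.15 (adjusted p = 5.0e-12) in control and 1.82 ± 0.15 (adjusted p = 3.9e-30) in KO, with a difference of 0.70 ± 0.22 (adjusted p = 0.066). Normalized counts of E2F2 were 146 and 135 (EtOH), 150.4 and 104 (DHT), 463 and 477 (FM) in control, and 90.4 and 90.3 (EtOH), 105 and 105 (DHT), 387 and 414 (FM) in KO, lowest in KO EtOH and over 3 times higher in FM than in EtOH in both lines. Its log2 fold changes in FM were 1.74 and 2.15, and that of KO against control in EtOH was -0.64 ± 0.21 (adjusted p = 0.033), lost when any of the 4 samples compared was left out.

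E2F7 and E2F8 encode repressors that act later in S phase. Normalized counts of E2F8 were 185 and 131 (EtOH), 154 and 127 (DHT), 556 and 590.4 (FM) in control, and 88.2 and 111 (EtOH), 150.1 and 137 (DHT), 508 and 437 (FM) in KO. It had the largest FM response of the 56 genes, 1.86 ± 0.20 (adjusted p = 1.6e-19) in control and 2.24 ± 0.21 (adjusted p = 2.4e-25) in KO. In EtOH it was lower in KO, -0.66 ± 0.22 (adjusted p = 0.029), with no overlap, and it did not pass without control EtOH replicate 1 (-0.392) or without either KO EtOH sample. Normalized counts of E2F7 were 448 and 340.2 (EtOH), 272 and 231 (DHT), 803 and 865 (FM) in control, and 261 and 308 (EtOH), 252 and 190.2 (DHT), 586 and 540.3 (FM) in KO. It fell with DHT in control, -0.65 ± 0.19 (adjusted p = 0.004), without overlap between the groups, and had -0.36 ± 0.19 (adjusted p = 0.24) in KO. The fall in control was -0.438 without control EtOH replicate 1 and -0.539 without control DHT replicate 2, and passed in neither case.

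The origin licensing genes load the MCM helicase on DNA in G1. All 11 rose in FM in KO and 10 of 11 in control, with medians of 1.45 and 1.15 (log2). CDC6, the ATPase that joins the origin recognition complex to bring in the helicase, lies at chromosome 17, 38444131 to 38460909, plus strand (GRCh37). Normalized counts of CDC6 were 1779 and 1860.1 (EtOH), 2713 and 2851 (DHT), 4998 and 5179 (FM) in control, and 918 and 1009 (EtOH), 1609 and 1460.2 (DHT), 3514 and 3442 (FM) in KO. The groups followed the order EtOH, DHT, FM in each line with no overlap, and KO lay below control at every step. KO was 1.89-fold lower in EtOH, -0.92 ± 0.11 (adjusted p = 1.6e-15), and 1.81-fold lower in DHT, -0.86 ± 0.10 (adjusted p = 1.1e-14). In FM it was -0.55 ± 0.10 (adjusted p = 2.6e-06), under 1.5-fold. DHT raised it by 1.53-fold in control, 0.61 ± 0.10 (adjusted p = 5.4e-08), and by 1.59-fold in KO, 0.67 ± 0.11 (adjusted p = 9.9e-09). The call in control was lost, at a log2 fold change of 0.58, without control EtOH replicate 1, and at 0.575 without control DHT replicate 2. In FM the response was 1.48 in control and 1.85 in KO.

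ORC1, a subunit of the origin recognition complex, was lower in KO in EtOH, -0.63 ± 0.14 (adjusted p = 2.7e-04), and ORC6, another, had -0.53 ± 0.14 (adjusted p = 0.0029). The call of ORC1 was lost without control EtOH replicate 1 (-0.513) or KO EtOH replicate 2 (-0.593). CDT1, the partner of CDC6 in loading, had -0.42 ± 0.17 (adjusted p = 0.12) in EtOH, and it rose in FM in KO by 2.39-fold. In control its FM response was 0.50 ± 0.17 (adjusted p = 0.014), under 1.5-fold, and the difference between the lines was 0.76 ± 0.24 (adjusted p = 0.082). GMNN, which encodes geminin, the inhibitor of CDT1, had normalized counts of 599 and 721 (EtOH), 655 and 828 (DHT) in control, and 442 and 455 (EtOH), 484 and 499 (DHT) in KO. KO samples lay below control samples in both conditions. It was lower in KO in DHT, -0.59 ± 0.15 (adjusted p = 8.8e-04), just past 1.5-fold, and the call was lost under 5 alternatives that kept all replicates and when either control DHT replicate 2 or KO DHT replicate 1 was left out.

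The MCM2 to MCM7 proteins form the ring of the helicase. Normalized counts of MCM7 were 4275 and 4994 (EtOH), 4966 and 4961 (DHT), 10451 and 10059.5 (FM) in control, and 3278 and 3285 (EtOH), 3629 and 4042 (DHT), 8816 and 9167 (FM) in KO. All 6 rose in FM in both lines, from 0.59 for MCM3 to 1.25 for MCM4 in control and from 0.86 to 1.56 in KO. In EtOH their KO values were between -0.68 and -0.28, and only MCM5 passed, -0.68 ± 0.13 (adjusted p = 9.2e-06). Normalized counts of MCM5 were 1178 and 1449 (EtOH) in control, and 808 and 831 (EtOH) in KO, and without control EtOH replicate 2 its value was -0.523, under 1.5-fold. Normalized counts of MCM3 were 3347 and 3768 (EtOH), 2329 and 2371 (DHT), 5439 and 5295 (FM) in control, and 2392 and 2403 (EtOH), 2036 and 2068 (DHT), 4289 and 4429 (FM) in KO. MCM3 fell with DHT in control, -0.60 ± 0.10 (adjusted p = 1.8e-08), and had -0.23 ± 0.10 (adjusted p = 0.12) in KO. In EtOH and DHT no control sample overlapped a KO sample. The fall in control was -0.511, under 1.5-fold, without control EtOH replicate 2, and -0.584 without control DHT replicate 1.

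The origin firing genes turn the loaded helicase into an active one, and CDC45 and the GINS subunits become part of it. All 6 rose in FM in both lines, and 4 of 6 were lower in KO in EtOH, with a median of -0.65 (log2). CDC45 lies at chromosome 22, 19466980 to 19508135, plus strand (GRCh37). Normalized counts of CDC45 were 449 and 611 (EtOH), 598 and 556 (DHT), 1401 and 1396 (FM) in control, and 265 and 297 (EtOH), 354 and 328 (DHT), 1221 and 1279 (FM) in KO. In each condition both KO samples lay below both control samples, by most in EtOH and DHT. KO was 1.88-fold lower in EtOH, -0.91 ± 0.16 (adjusted p = 6.8e-07), and 1.69-fold lower in DHT, -0.76 ± 0.15 (adjusted p = 3.0e-05), and had -0.16 ± 0.14 (adjusted p = 0.47) in FM. It rose in FM by 2.64-fold in control and 4.44-fold in KO. The difference between these responses was 0.75 ± 0.21 (adjusted p = 0.038). Without control EtOH replicate 2 the difference was 0.511 and did not pass, and of the 8 samples compared only control EtOH replicate 1 could be left out without ending the call.

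MCM10, a scaffold needed for helicase activation, had normalized counts of 582 and 486 (EtOH), 482 and 495 (DHT), 1911 and 1914 (FM) in control, and 337 and 329 (EtOH), 391 and 405 (DHT), 1400.0 and 1317 (FM) in KO. The FM values of both lines were far above the starved ones, and KO was below control throughout. It was lower in KO in EtOH, -0.68 ± 0.13 (adjusted p = 1.7e-05), and at -0.547 it fell short of 1.5-fold without control EtOH replicate 1. In FM it had -0.49 ± 0.12 (adjusted p = 7.5e-04). Normalized counts of GINS2 were 436 and 665 (EtOH), 531 and 668 (DHT), 1245 and 1174 (FM) in control, and 379.8 and 307 (EtOH), 380.0 and 439 (DHT), 1033 and 1159 (FM) in KO. In EtOH its KO samples lay below its control samples, -0.68 ± 0.20 (adjusted p = 0.0084), but the 2 control samples were far apart. The value was -0.348 without control EtOH replicate 2 and -0.533 without KO EtOH replicate 2, and passed in neither case. GINS3 was lower as well (-0.62 ± 0.16 (adjusted p = 0.0018), -0.43 without control EtOH replicate 2 and -0.521 without KO EtOH replicate 2), while GINS1 had -0.58 ± 0.12 (adjusted p = 3.7e-05), just under 1.5-fold. CDC7, the kinase that triggers firing, was unlike the other members of its group in EtOH and DHT, but not in FM. Normalized counts of CDC7 were 1054 and 1094 (EtOH), 797 and 852 (DHT) in control, and 1065 and 1117 (EtOH), 1069.8 and 984 (DHT) in KO. In EtOH control and KO overlapped, with a log2 fold change of 0.02 ± 0.11 (adjusted p = 0.96), and in DHT the KO samples lay above the control samples, with 0.32 ± 0.11 (adjusted p = 0.026), under 1.5-fold. The response of CDC7 to DHT was -0.38 ± 0.11 (adjusted p = 0.0039) in control and -0.09 ± 0.11 (adjusted p = 0.75) in KO. In FM its KO samples lay below its control samples, with -0.15 ± 0.10 (adjusted p = 0.335), near the median of its group, -0.155.

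The 14 genes for DNA polymerases, primase, the sliding clamp and its loaders rose in FM in 12 cases in control and 13 in KO, with medians of 0.94 and 1.25 (log2). PCNA, the clamp that holds polymerases on DNA, had the highest level per kb of canonical transcript of the 56 genes in every group. Normalized counts of PCNA were 3626 and 5083 (EtOH), 3047 and 4076 (DHT), 7819.8 and 8213 (FM) in control, and 3026 and 2975 (EtOH), 2753 and 2831 (DHT), 7474 and 7658 (FM) in KO. Its control EtOH samples lay far apart, and both KO EtOH samples were below them, -0.54 ± 0.16 (adjusted p = 0.011). Without control EtOH replicate 1 the value was -0.761, past the threshold, and without control EtOH replicate 2 it was -0.273. Lower in KO in EtOH past the threshold were RFC5, a subunit of the clamp loader, -0.60 ± 0.10 (adjusted p = 1.2e-07) (-0.563 without KO EtOH replicate 1), and POLE2, a subunit of the leading strand polymerase, -0.62 ± 0.18 (adjusted p = 0.0096). Normalized counts of POLE2 were 203 and 232 (EtOH), 214 and 242 (DHT) in control, and 142 and 139 (EtOH), 153 and 131 (DHT) in KO. Both KO samples were below both control samples in EtOH and in DHT, and POLE2 also passed in DHT, -0.68 ± 0.18 (adjusted p = 0.002). Its call in DHT was lost without control DHT replicate 2 (adjusted p = 0.0953) or KO DHT replicate 2 (adjusted p = 0.0846), and in EtOH without control EtOH replicate 2 or either KO EtOH sample. POLE, the catalytic subunit of the same enzyme, had 0.44 and 0.38 in FM and did not reach 1.5-fold. The other 12 genes had values in EtOH of KO against control between -0.55 for RFC4 and -0.26 for POLE.

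Nucleotide supply was represented by both ribonucleotide reductase subunits, TYMS and TK1. RRM2, the regulated subunit of the reductase, had normalized counts of 2544 and 2293 (EtOH), 3592 and 3319.7 (DHT), 8175 and 8661 (FM) in control, and 1547 and 1711 (EtOH), 2438 and 2243 (DHT), 7922 and 7209.6 (FM) in KO. FM lay far above starvation, and DHT above EtOH, without overlap in either line. Its FM response was 1.80 ± 0.11 (adjusted p = 3.6e-57) in control and 2.21 ± 0.11 (adjusted p = 4.1e-85) in KO, and its DHT response was 0.52 ± 0.11 (adjusted p = 5.4e-05) and 0.52 ± 0.11 (adjusted p = 7.6e-05), under 1.5-fold in both. KO against control had -0.57 ± 0.11 (adjusted p = 2.2e-05) in EtOH and -0.56 ± 0.11 (adjusted p = 1.4e-05) in DHT, also short of 1.5-fold. RRM1, the larger subunit, rose in FM by 1.99-fold and 2.23-fold, and TYMS, which makes thymidylate, by 1.96-fold and 2.67-fold.

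TK1, the thymidine kinase of the salvage pathway, lies at chromosome 17, 76170172 to 76183314, minus strand (GRCh37). Normalized counts of TK1 were 2936 and 4398 (EtOH), 3098 and 3334 (DHT), 5443 and 4838 (FM) in control, and 2100.2 and 2149 (EtOH), 1835 and 2045 (DHT), 5932 and 6269 (FM) in KO. In EtOH and DHT both KO samples lay below both control samples, and in FM both lay above them. KO was 1.73-fold lower in EtOH, -0.79 ± 0.16 (adjusted p = 3.4e-05), and 1.66-fold lower in DHT, -0.73 ± 0.16 (adjusted p = 1.1e-04), and had 0.25 ± 0.16 (adjusted p = 0.28) in FM. The control EtOH samples differed by more than those of any other group, and without control EtOH replicate 2 the difference in EtOH was -0.467, under 1.5-fold. TK1 rose in FM by 2.87-fold in KO and had 0.49 ± 0.16 (adjusted p = 0.008) in control. The difference between the responses was 1.03 ± 0.22 (adjusted p = 0.0011), the largest of the 56 genes. Without control FM replicate 2 it was 0.949, with an adjusted p of 0.0645.

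CHAF1A and CHAF1B, subunits of the complex that places histones on new DNA, both rose in FM, by 1.9-fold and 2.25-fold in control and 2.46-fold and 2.64-fold in KO. In EtOH their KO values were -0.49 ± 0.14 (adjusted p = 0.0096) and -0.45 ± 0.12 (adjusted p = 0.0033), under 1.5-fold.

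Other genes of the same pathway, 48 listed by function and 47 of them tested in these comparisons, were counted by the same rules. In FM 22 rose (46.8%, against 9.81% of all genes tested) and 3 fell (6.38%, against 11.5%) in control, and 25 rose (53.2%, against 9.61%) and 3 fell (6.38%, against 9.68%) in KO. CDKN1C, CDKN2A and POLD4 fell in both lines. KO against control gave 5 lower in EtOH (10.6%, against 2.31% of all genes) and 1 higher (2.13%, against 2.8%). In DHT it gave 4 lower (8.51%, against 3.32%) and 1 higher (2.13%, against 4.66%), and in FM 1 of each (2.13%, against 2.6% lower and 5.41% higher), so the shares of higher genes, and both shares in FM, were below those of all genes. The lower genes were CKS1B, FEN1, LIG1, RPA3 and TICRR in EtOH, CDKN2B, CKS1B, FEN1 and RPA3 in DHT, and CLSPN in FM. The higher ones were RRM2B, a reductase subunit that p53 induces, in EtOH (0.60) and DHT (0.81), and the helicase gene RECQL4 in FM (0.59). All of these genes are named here with their values known. Of those in EtOH, CKS1B (-0.569), FEN1 (-0.389), LIG1 (-0.484), RPA3 (-0.416) and RRM2B (0.432) did not pass without control EtOH replicate 2, and TICRR (-0.499) did not pass without control EtOH replicate 1. LIG1, RPA3 and RRM2B also did not pass without KO EtOH replicate 2, nor TICRR without KO EtOH replicate 1. In DHT the calls of CKS1B, FEN1 and RRM2B held when any 1 of the 4 samples compared was left out, that of RPA3 held only without control DHT replicate 1, and that of CDKN2B was lost in each case. In FM the calls of CLSPN and RECQL4 were also lost in each case. FEN1, the nuclease that trims Okazaki fragments, had normalized counts of 2510.4 and 3595 (EtOH), 3940.4 and 4636 (DHT), 6320.1 and 6222 (FM) in control, and 1942 and 1893 (EtOH), 2536 and 2631 (DHT), 5466 and 5813 (FM) in KO. It was lower in KO in EtOH, -0.67 ± 0.15 (adjusted p = 2.6e-04), and in DHT, -0.73 ± 0.15 (adjusted p = 2.8e-05), and had -0.15 in FM. CKS1B, a cofactor of SKP2, had normalized counts of 1431 and 2212 (EtOH), 1635 and 2234 (DHT), 2368 and 2340.3 (FM) in control, and 998 and 933 (EtOH), 969 and 1067 (DHT), 2452 and 2418 (FM) in KO. It was lower in KO in EtOH, -0.92 ± 0.18 (adjusted p = 3.0e-05), and in DHT, -0.93 ± 0.18 (adjusted p = 1.4e-05), and differed in its FM response, 0.96 ± 0.26 (adjusted p = 0.02). That difference had an adjusted p of 0.0962 by edgeR, and in DESeq2 passed only without control EtOH replicate 1 (1.245) when single samples were left out. DHT raised 4 of the 47 in control (8.51%, against 6.04% of all genes), ATAD2, CDKN1A, CDKN2B and ORC5, and 2 in KO (4.26%, against 4.43%), ATAD2 and ORC5, shares near those of all genes. ATAD2, a chromatin protein that androgen is known to induce, had normalized counts of 2289 and 1976 (EtOH), 4553 and 4582 (DHT), 8807 and 9623 (FM) in control, and 1498 and 1733 (EtOH), 4936 and 4162 (DHT), 8232 and 8242 (FM) in KO. Its DHT response was 1.10 ± 0.12 (adjusted p = 4.7e-17) in control and 1.49 ± 0.12 (adjusted p = 7.1e-31) in KO. ORC5, an origin recognition subunit that was not among the 56 genes, rose with DHT by 1.86-fold in control and 2.3-fold in KO.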

How the data were processed

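Poly(A) RNA-seq of 12 LNCaP samples was analysed. The authors made stranded TruSeq libraries, sequenced them on a HiSeq instrument, mapped reads to GRCh37 with TopHat2 (2.0.11, after CASAVA 1.7) and counted them for each Ensembl gene by HTSeq (0.5.3p3, versions per the submitters' processing notes), and the deposited values are raw read counts per gene. HTSeq leaves out reads that map to several places, overlap several genes or overlap none. Such tallies made up between 26.9% and 31.5% of a file's total and were not used. The strand setting and the Ensembl release are not given in the sources used here. Replicates are biological duplicates per the labels. Their counts differed beyond sampling noise in every group (chi-square per degree of freedom from 3.19 to 36.5), so each was counted once.

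Symbols, GRCh37 positions and canonical transcript lengths came from GENCODE (lifted to GRCh37), and promoters from RefSeq (GRCh38.p14). The 26156 genes with at least 10 counts in total were kept. DESeq2 (1.42.0, R 4.3.3), the tool of the study's methods, was fitted once to all 12 samples with a coefficient per group, Wald tests and Benjamini-Hochberg adjustment over all genes tested. The script was tested on data simulated from the spread that DESeq2 fitted, which checks the code and not the calls made here. DESeq2 gives no adjusted p to genes of low mean count, so the number of genes tested varied between comparisons. A gene passed at an adjusted p of at most 0.05 and at least 1.5-fold. Normalized counts are counts divided by DESeq2 size factors, and errors of fold changes are SE. Alternatives were edgeR (4.0.16), TMM size factors, other count filters, thinning to 20826843 counts, fits of only the groups compared, the replicate number as a block and each replicate left out.

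The genes given with per-sample values were, in each comparison, at most 6 in each direction with the largest change past the threshold and 100 or more normalized counts on average. Further genes, CCND1, PCNA, CDC7, MCM7, E2F1 and MCM5 among them, were given with such values in the account of their role, chosen after their values were seen. Other genes of the pathway were named where they passed in the most comparisons. The 57 symbols and all lists were chosen with earlier results of these data known. UHRF1 was not analysed here.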

Additional observations from a re-analysis of the deposited data

Results flagged for a closer look

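In TK1 and CDC45 the response to full medium differed between the lines by the test of the interaction in DESeq2. For TK1 the log2 response was larger in KO by 1.034 ± 0.224 (SE; adjusted p = 0.0011), and both KO samples lay below both control samples in EtOH and above them in FM. For CDC45 it was larger by 0.75 ± 0.215 (SE; adjusted p = 0.038), and the KO samples lay below the control samples in EtOH and in FM. The 2 control EtOH samples of these genes were far apart, at 2936 and 4398 normalized counts for TK1 and 449 and 611 for CDC45. Without control EtOH replicate 2 the CDC45 difference was 0.511 and did not pass, and the TK1 difference did not pass without control FM replicate 2 (0.949, adjusted p = 0.0645).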

How the results depend on the processing

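No gene that passed in a comparison reversed its direction there under the alternatives tried. Values of genes that did not pass were not followed in this way. The genes that passed under all of them were 50 of 50 for FM in KO, 42 of 45 for FM in control (CCNE1, MCM3 and RFC4 were lost at times), 3 of 3 for DHT in KO, 1 of 4 for DHT in control, 3 of 14 for KO against control in EtOH, 3 of 5 in DHT and 1 of 2 in FM, and 0 of 2 for the difference in FM response. With no fold change minimum the counts were 13 for DHT in control, 7 for DHT in KO, and 33, 20 and 13 for KO against control in EtOH, DHT and FM. When only the groups compared were fitted, 2 genes passed for DHT in control, 7 for KO in EtOH and 1 for the difference in FM response, a fit with fewer samples to estimate the spread. The difference in FM response also gave 1 gene with edgeR, 1 with thinned counts and 4 with the replicate block. Leaving out single samples gave 0 to 1 genes for the difference in DHT response, 0 to 11 for the difference in FM response (11 without control EtOH replicate 1), 10 to 24 for KO in EtOH (24 without control EtOH replicate 1) and 1 to 5 for KO in FM (5 without KO FM replicate 1). The cause of these shifts was not tested. The replicate numbers were not taken to pair the samples, because not every pair of groups correlated above 0.1: deviations of same-numbered samples correlated between -0.415 and 0.692 over 15 pairs of groups. The 6 pairs above 0.1 were those among control EtOH, control DHT, KO DHT and KO FM, with 0.692 for control EtOH with control DHT. The replicate block moved no other count by over 1.5 times. It fits a replicate effect common to all 6 groups, so it cannot check a pairing held by some groups only. A pairing of control EtOH with control DHT was not tested on its own. The SE of KO against control in EtOH was 0.22 (log2) for E2F8, at between 88.2 and 185 normalized counts, and 0.10 for RFC5, at between 1113 and 1745.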
